A study of Arabidopsis thaliana with 14 samples.

Results

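Transcript levels in young inflorescences of Arabidopsis thaliana were compared between the mutant gir (gir1, named for its glucose-inhibited root elongation) and Col-7, a laboratory accession that serves as the wild type. The comparison takes 8 of the 14 arrays of the study, chosen by their titles, 4 of each genotype. Both groups were untreated plants aged 33 days grown in soil, and the flowers that had opened or were opening had been removed before the rest of the inflorescence was taken. The other 6 arrays hold excised roots of plants aged 21 days, on plates with 4% glucose at the end, 3 for gir and 3 for Col-7; they enter here only as a reference level. The allele of gir, the way the mutant was made and whether replicates came from separate plants are not given in the sources used here, and the p-values therefore rest on differences among these arrays, which may be technical in part. No table given for this work tied GIR1 to a locus, and its own transcript was not analysed here.

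An inflorescence from which open flowers have been taken holds floral buds of many stages, in which anthers make pollen. In an anther the tapetum, a nursing layer, feeds the developing spores and supplies their outer wall, and it breaks down before the pollen is ripe. The late pollen grain holds a large vegetative cell, which will grow the pollen tube, and the male germ line inside it. The vegetative cell stores transcripts for the tube's growth at its tip: wall-loosening enzymes, an actin track for vesicles, small secreted peptides with their receptor kinases, and transporters of sugars and ions.

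Values are MAS5 intensities on a linear scale, and changes are gir minus Col-7 on log2(intensity + 26), each with its standard error and a p-value adjusted over the 13967 probe sets tested. A probe set is called when that adjusted p is under 0.05. It was tested when it reached its own array's 40th percentile, an intensity between 126 and 140 on these 8 arrays, on at least 4 of them, and a value under that percentile is called dim here. Adding 26 understates the change of a gene that is dim in one genotype. A gene dim on all 4 gir arrays entered the test through its Col-7 values alone and so had to be lower. Likewise, a gene dim on all 4 Col-7 arrays entered through its gir values alone and could hardly be lower. No detection calls were given with the values.

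Of the markers of a flowering shoot, those of the tapetum, the ovule and green tissue were present in both genotypes. Defining root genes were dim on every inflorescence array: EXPA7 and EXPA18, expansins of root hairs, summed to between 25.5 and 57.7 in Col-7 and between 36.0 and 91.5 in gir. Their means in Col-7 roots were 737 and 1251. The meiotic genes SPO11-1 and SDS, the floral identity genes UFO and JAG and the stem cell peptide gene CLV3 were also dim in both genotypes, so that these cell types could not be followed. Pearson correlations of log2 values lay between 0.965 and 0.991 within a genotype and between 0.882 and 0.927 across genotypes. The signal of the 25S ribosomal RNA control went with the replicate number: replicate 1 had 344.5 on the Col-7 and 359.1 on the gir array, replicate 2 had 835 and 954.3, replicate 3 had 3424.4 and 2767.6, and replicate 4 had 6585.1 and 8660.

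The gir inflorescence differed from Col-7 at 3485 probe sets, 25.0% of those tested. In this fit calls were balanced in number, 1743 higher (12.5%) and 1742 lower (12.5%), but not in size. At 2-fold or more, 652 probe sets were lower (4.67%) and 147 higher (1.05%). At 4-fold or more, 330 were lower (2.36%) and 11 higher (0.0788%). The balance in number depended on the fit. With same-numbered arrays as a block, 2706 probe sets were called higher and 2158 lower. Without gir replicate 2, 1160 were higher and 1469 lower. The median change over all probe sets tested was 0.06. In bulk tissue, fewer cells of a type and less RNA per cell cannot be told apart, and this holds for every fall and rise below.

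**Figure D1:**
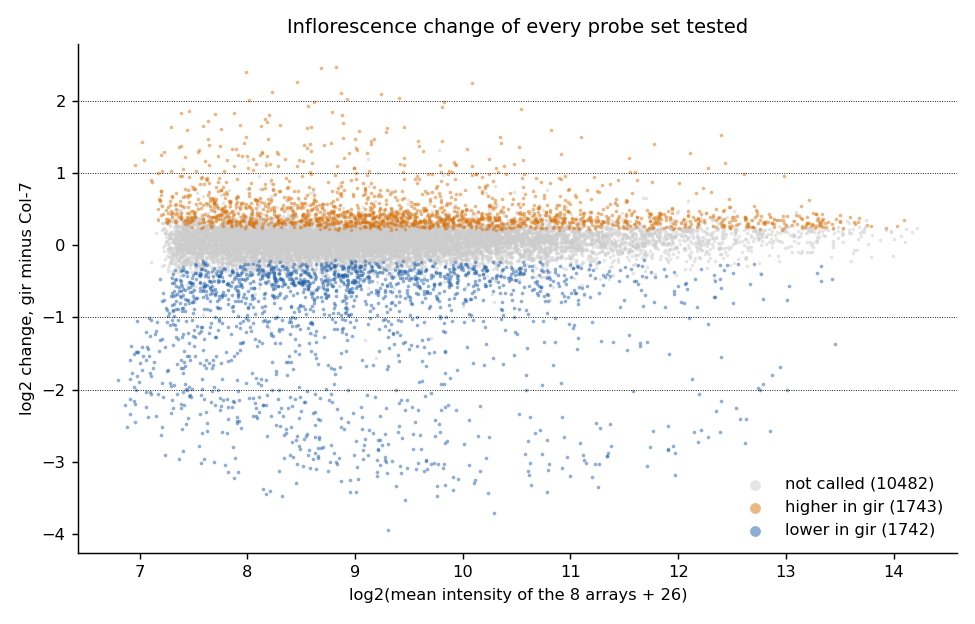
Each point is 1 of the 13967 probe sets tested; the horizontal axis is log2 of the mean intensity of the 8 inflorescence arrays plus 26, and the vertical axis is the log2 change, gir minus Col-7. Orange points are the 1743 called higher, blue points the 1742 called lower and grey points the rest; dotted lines mark 2-fold and 4-fold, and the 330 points at or below the lowest line outnumber the 11 at or above the highest.

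The large falls were found on all 4 gir arrays, to a depth that varied among them. Against the Col-7 mean, the median of the 330 probe sets at least 4-fold lower was -2.32, -2.56, -2.70 and -2.84 in gir replicates 1 to 4, and between -0.08 and 0.11 on the Col-7 arrays. The median SD of these probe sets within a genotype was 0.12 in Col-7 and 0.33 in gir, against 0.13 and 0.15 over all probe sets tested. The 147 probe sets at least 2-fold higher had the wider spread in Col-7, with a median SD of 0.32 against 0.24 in gir. Their median was -0.26 and -0.11 in Col-7 replicates 1 and 2 and 0.24 and 0.14 in replicates 3 and 4, the arrays with the higher 25S signal, and between 1.19 and 1.41 on the gir arrays. The part of that signal in the rises was not tested.

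Markers of late pollen and the pollen tube were lower in gir. Of 28 listed genes, 10 were measured and 6 tested, and the 6 were called lower (12.5% of all probe sets were). Of these, AT59, ANX2, AGL66 and AGL104 were dim on every gir array and could only be lower, so nothing is read from the count; ACT12 and AGL18 were not. The summed intensity of the 10 lay between 3585 and 4151 on the Col-7 arrays and between 629 and 942 on the gir arrays. AT59, a pectate lyase-like gene of pollen, gave 1247, 1073, 1267 and 1509 in Col-7 and 125, 108, 65.9 and 58.1 in gir. It fell by more than any other gene with a symbol, with a change of -3.53 ± 0.19 (adjusted p = 3.2e-07), and all 4 gir values were dim. Among the genes named by locus alone, AT5G07420 gave 2346, 2251, 2136 and 2458 in Col-7 and 249, 157, 147 and 89.0 in gir, and its change was -3.71 ± 0.21 (adjusted p = 5.1e-07). Its neighbour in number, AT5G07430, gave 6504, 7178, 7412 and 7579 in Col-7 and 1000.3, 818, 703 and 598 in gir, and stayed above the dim range on all 8 arrays with a change of -3.18 ± 0.14 (adjusted p = 1.2e-07). AT4G02250 likewise stayed above it and gave 3819, 3651, 4299 and 5000.3 in Col-7 and 634, 487, 410.0 and 261 in gir, a change of -3.21 ± 0.22 (adjusted p = 1.7e-06). No gir array reached a Col-7 array in these 4 genes, which were chosen for that and for their size; 27.9% of all probe sets did not overlap.

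ADPG1, a polygalacturonase that cuts pectin when anthers and siliques open, was the only tested gene matched to its class. It gave 749.8, 593, 618 and 639 in Col-7 and 185, 143, 138 and 115 in gir, without overlap, and fell by 1.99 ± 0.13 (adjusted p = 9.7e-07). Matching by words and symbol stems can miss genes listed by locus alone. The GH9 family of endoglucanases, which cut glucan chains of the wall, had 7 of its 9 tested members called lower and none higher (12.5% of all probe sets in each direction), with a median of -0.67 against 0.06 over all probe sets. GH9B11 and GH9B5 were dim on all 4 gir arrays and could only be lower. GH9B11 gave 682, 585, 587 and 776 in Col-7 and 104, 63.4, 39.5 and 28.6 in gir, and its change was -3.08 ± 0.23 (adjusted p = 3.6e-06). GH9A4 gave 999, 936, 978 and 1131 in Col-7 and 151, 185, 126 and 88.4 in gir, and its change was -2.69 ± 0.16 (adjusted p = 7.7e-07). In both, the highest gir array stood far under the lowest Col-7 array. GH9B5 fell by 1.23 ± 0.10 (adjusted p = 5.6e-06), and the other 4 called members changed by -0.35 to -0.71. GH9B7 (0.02 ± 0.10) and GH9A3 (0.06 ± 0.11) were not called.

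Expansins, which loosen the wall as cells grow, split. Of 11 tested, 4 were lower and 1 higher (12.5% of all probe sets in each direction), with a median of -0.08. The beta-expansin gene EXPB5 gave 537, 503, 656 and 573 in Col-7 and 44.4, 49.0, 77.1 and 46.3 in gir and fell by 2.90 ± 0.13 (adjusted p = 1.4e-07). EXPA24 gave 475, 513, 529 and 459 in Col-7 and 60.6, 73.3, 90.2 and 46.7 in gir and fell by 2.49 ± 0.13 (adjusted p = 3.2e-07). Both were dim on every gir array. EXPA8 gave 3097, 2599, 2269.6 and 2702 in Col-7 and 979, 635, 558 and 585 in gir, and it kept a clear signal in gir after a change of -1.94 ± 0.17 (adjusted p = 1.1e-05). EXLA1 fell by 0.46 ± 0.09 (adjusted p = 0.0039). EXPA20 went the other way, from 155 ± 14.3 (SD, n = 4) in Col-7 to 226 ± 25.9 in gir, a change of 0.48 ± 0.10 (adjusted p = 0.0052). The calls of EXLA1 and EXPA20 were lost with replicates 1 and 2 alone (adjusted p = 0.064 and 0.11). Pectinesterases remove methyl groups from pectin. Of 3 tested genes matched to that class by words and symbol stems, PME61 alone was called. It gave 159, 191, 192 and 180.2 in Col-7 and 302, 408, 364 and 374 in gir, without overlap, and rose by 0.91 ± 0.10 (adjusted p = 8e-05). The matching can miss members, so other pectinesterases may lie among the genes named by locus alone. Such genes include large falls given above, as of AT5G07420, AT5G07430 and AT4G02250. PME61 therefore does not stand for its family, and no direction is read for it.

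Both tested actins were lower, to different degrees. ACT12, an actin of pollen, gave 676, 657, 723 and 722 in Col-7 and 175, 148, 118 and 106 in gir, and its change was -2.17 ± 0.12 (adjusted p = 5.6e-07). ACT11, an actin of reproductive organs more widely, gave 865, 891, 874 and 808 in Col-7 and 616, 445, 536 and 497 in gir, a change of -0.70 ± 0.10 (adjusted p = 0.00052). Beyond that class, 5 genes of actin-binding proteins and motors were named for the size of their falls or after their values were seen, and they stand for no group. PLIM2a and PLIM2b encode LIM-domain proteins that bundle actin filaments. PLIM2a gave 1728, 1876, 1855 and 2007 in Col-7 and 277, 196, 238 and 130.1 in gir and fell by 3.04 ± 0.17 (adjusted p = 5.5e-07). PLIM2b gave 1108, 1128, 1202 and 1333 in Col-7 and 347, 323, 281 and 256 in gir and fell by 1.90 ± 0.10 (adjusted p = 4.1e-07), and its level in Col-7 roots was 456 ± 87.0 (SD, n = 3); that of PLIM2a was 3.96 ± 1.46 (SD, n = 3). The myosin motor genes XIE and XIC changed by -2.38 ± 0.16 (adjusted p = 1.4e-06) and -1.60 ± 0.12 (adjusted p = 3.6e-06). XIC was dim on all 4 gir arrays and could only be lower. NET2D, one of the NETWORKED proteins that tie actin to membranes, changed by -0.87 ± 0.09 (adjusted p = 3.4e-05), and it was the only one of 6 tested members of its family to be called. In each of these 7 genes the genotypes did not overlap, as in 27.9% of all probe sets tested.

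Of 14 tested genes of microtubules and kinesins, 4 were lower and 1 higher, where 12.5% of all probe sets were called in each direction. SP1L4, a SPIRAL1-like microtubule protein gene, gave 969.6, 1036, 1069 and 1216 in Col-7 and 139, 97.4, 115 and 108 in gir, a change of -2.97 ± 0.11 (adjusted p = 7.9e-08). TUA1, an alpha-tubulin of stamens, gave 1217, 1175, 1231 and 1357 in Col-7 and 495, 525, 546 and 543 in gir, a change of -1.20 ± 0.08 (adjusted p = 9.7e-07). The beta-tubulin genes TUB1 and TUB9 changed by -0.92 ± 0.16 (adjusted p = 0.0023) and -0.40 ± 0.09 (adjusted p = 0.011), while the other 3 tested beta-tubulins were not called. KINESIN-12B, a motor of the dividing cell's phragmoplast, gave 162, 184, 128 and 139.6 in Col-7 and 238, 254, 219 and 203 in gir, a change of 0.51 ± 0.11 (adjusted p = 0.007). With replicates 1 and 2 alone, the adjusted p of TUB1, TUB9 and KINESIN-12B was 0.10, 0.18 and 0.063. The median of the class was 0.04.

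Small secreted peptides separated by member. RALF peptides signal through receptor kinases at the cell surface, and plant defensins are compact cysteine-rich proteins of defence and of reproduction. RALFL26 gave 1808, 1778, 2008 and 2269 in Col-7 and 322, 214, 198 and 76.9 in gir, and fell by 3.24 ± 0.30 (adjusted p = 1.9e-05). RALFL25 gave 1290.5, 1216, 1412 and 1700.1 in Col-7 and 173, 166, 191 and 98.1 in gir, and fell by 2.99 ± 0.17 (adjusted p = 5.6e-07). The other 5 tested RALF-like genes were not called and changed by 0.03 to 0.15. LCR72, a defensin-like gene, gave 1428, 1309, 1463 and 1741 in Col-7 and 239, 170.4, 141 and 112 in gir, a change of -3.02 ± 0.18 (adjusted p = 6.6e-07). ANX2, a receptor kinase that keeps the growing pollen tube intact, gave 379, 339, 389 and 418 in Col-7 and 44.5, 55.4, 26.6 and 12.6 in gir and was dim on all 4 gir arrays after a change of -2.80 ± 0.20 (adjusted p = 2.4e-06). Its partner ANX1 was too dim to be tested, with means of 129 in Col-7 and 22.6 in gir.

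Other defensin genes rose, and 2 are given array by array. PDF2.1 gave 47.9, 58.2, 58.9 and 79.8 in Col-7 and 251, 213, 236 and 239.9 in gir, from dim values to clear ones, a change of 1.59 ± 0.11 (adjusted p = 1.9e-06). It entered the test through its gir values alone and could hardly be lower. In Col-7 roots its level was 6411 ± 570.2 (SD, n = 3), far above either inflorescence. LCR68 gave 3162, 3435, 3141 and 3005 in Col-7 and 7311, 6167, 6622 and 6776 in gir, a change of 1.07 ± 0.08 (adjusted p = 3.6e-06). LCR69 rose by less, 0.38 ± 0.08 (adjusted p = 0.0051). In all, 14 genes of the peptide class were tested, 4 were higher and 3 lower (12.5% of all probe sets in each direction), and its median was 0.09. The class was built by words and symbol stems, and PDF1A (0.33 ± 0.07, called) and PDF1B (0.02 ± 0.17, not called), which it also took in, are peptide deformylases.

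**Figure D2:**
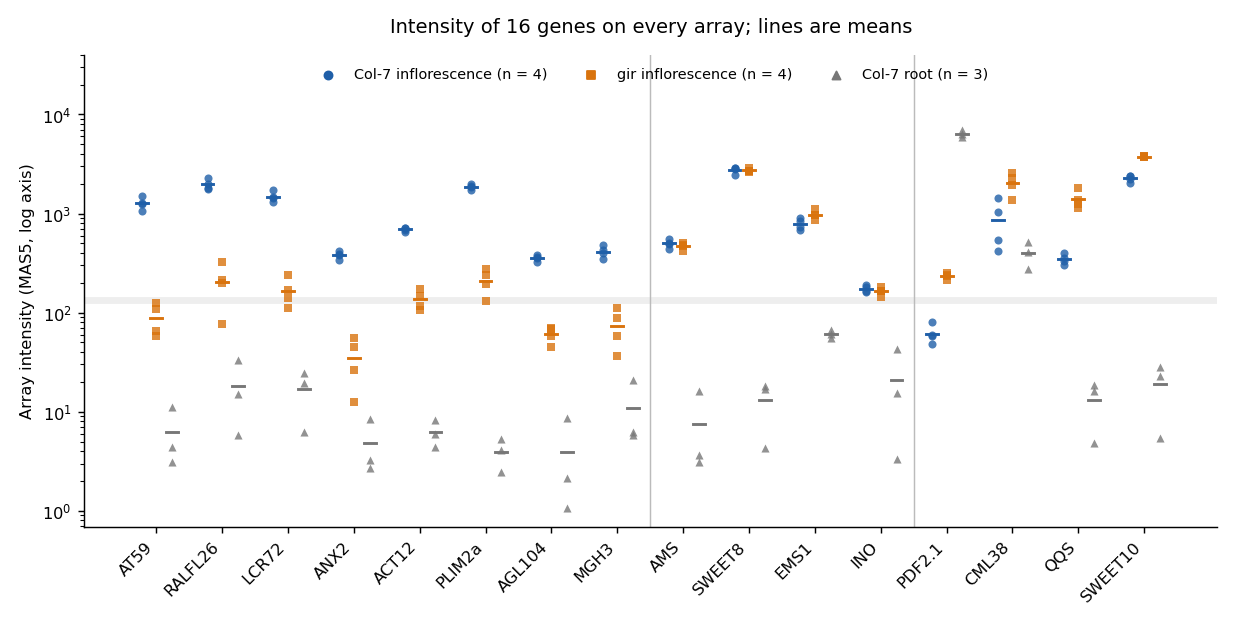
Intensity on a log axis of 16 genes on each array: blue circles are the 4 Col-7 inflorescence arrays, orange squares the 4 gir inflorescence arrays, grey triangles the 3 Col-7 root arrays, and short lines the means. The grey band spans the 40th percentiles of the 8 inflorescence arrays (126 to 140); the 8 genes on the left separate by genotype with gir lower, the 4 in the middle overlap, and among the 4 on the right gir is higher, with CML38 alone overlapping.

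Of 7 MADS-box transcription factors tested, 3 were lower and 1 higher (12.5% of all probe sets in each direction), with a median of -0.23. AGL104 and AGL66 are MADS-box transcription factors of the pollen-expressed MIKC* type. AGL104 gave 321, 364, 381 and 358 in Col-7 and 67.9, 70.1, 58.1 and 44.7 in gir and fell by 2.16 ± 0.11 (adjusted p = 2.2e-07). AGL66 gave 221, 326, 309 and 284 in Col-7 and 70.3, 93.7, 64.4 and 61.0 in gir and fell by 1.66 ± 0.13 (adjusted p = 6.3e-06). AGL18, a related factor also found outside pollen, had 469, 373, 410.3 and 469.7 in Col-7 and 239, 251, 249 and 168 in gir and fell by 0.86 ± 0.13 (adjusted p = 0.00071). AGL30 and AGL65, the other pollen members measured, were too dim to be tested. AGL87 moved up from 221 ± 35.6 (SD, n = 4) in Col-7 to 320.3 ± 46.3 in gir, with overlapping groups and a change of 0.49 ± 0.13 (adjusted p = 0.018). Its adjusted p was 0.053 without Col-7 replicate 3, 0.051 without Col-7 replicate 4 and 0.053 without gir replicate 2.

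MGH3, the histone H3 of the male germ line and the 1 tested marker of that list, gave 402, 477, 347 and 424 in Col-7 and 111, 89.0, 36.4 and 58.7 in gir. It fell by 2.19 ± 0.21 (adjusted p = 3.1e-05), to dim values on every gir array. HIS1-3, a linker histone variant induced by drought, gave 1236, 1282, 1820.1 and 1969.6 in Col-7 and 115, 218, 306 and 262 in gir, a change of -2.71 ± 0.25 (adjusted p = 2.2e-05), and it was also present in Col-7 roots at 309 ± 59.7 (SD, n = 3). The other 7 of the 9 tested genes of the histone class were not called. BPEp, a bHLH transcription factor known for limiting petal size, changed from 1319 ± 161 (SD, n = 4) in Col-7 to 456 ± 28.8 in gir, a log2 change of -1.48 ± 0.10 (adjusted p = 1.3e-06). None of the 5 tested genes of the bHLH class, which did not take in BPEp, was called, and 1 was with replicates as a block.

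Sugar transporters changed in both directions. SWEET proteins let sugars pass membranes down their gradient. Of 11 tested, 6 were lower and 3 higher (12.5% of all probe sets in each direction), with a median of -0.29. SWEET13, a sucrose transporter of anthers and leaf veins, gave 1482, 1200.1, 813 and 1041 in Col-7 and 209, 179, 165 and 147 in gir, a change of -2.51 ± 0.17 (adjusted p = 1.4e-06). SWEET14 gave 1729, 1222, 949 and 1094 in Col-7 and 323, 230.2, 236 and 156 in gir, a change of -2.28 ± 0.21 (adjusted p = 2.1e-05). The gene listed as AtVEX1, also known as SWEET5 and as expressed in the vegetative cell, gave 2549, 2598, 2676 and 2858 in Col-7 and 447, 281, 311 and 325 in gir. Its change was -2.90 ± 0.12 (adjusted p = 1.2e-07), and under its listed symbol it was not counted in the 11. SWEET9, the sucrose transporter of nectaries, ran from 461 to 1266 in Col-7 and from 151 to 584 in gir. Its groups overlapped, the change was -1.15 ± 0.37 (adjusted p = 0.046), and the call was lost without any 1 of Col-7 replicates 1, 2 and 4 and gir replicates 2, 3 and 4 (adjusted p = 0.076 to 0.11). The remaining 3 falls lay between -0.29 and -0.96.

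On the higher side, SWEET10 gave 2406, 2045, 2254 and 2381 in Col-7 and 3762, 3705, 3797 and 3778 in gir, 4 nearly equal gir values above all Col-7 values, a change of 0.72 ± 0.08 (adjusted p = 5.2e-05). SWEET11, which loads sucrose into the phloem, rose by 0.53 ± 0.08 (adjusted p = 0.00098). SWEET17, a fructose transporter of the vacuole, rose by 0.49 ± 0.14 (adjusted p = 0.027), with adjusted p = 0.075 without Col-7 replicate 3 and 0.074 without Col-7 replicate 4. SWEET8, which feeds microspores from the tapetum, gave 2453, 2860.2, 2804 and 2872 in Col-7 and 2619, 2716, 2672 and 2894 in gir. Its groups overlapped and its change was -0.01 ± 0.08 (adjusted p = 0.94), while its level in Col-7 roots was only 13.3 ± 7.75 (SD, n = 3). TMT3, a sugar importer of the vacuole, gave 582, 563, 552 and 573 in Col-7 and 231, 172, 160.3 and 143 in gir and fell by 1.57 ± 0.12 (adjusted p = 3.9e-06). The class of sugar transporters and invertases also took in CHB3 and SWI3A, chromatin proteins matched by a word in their listed names. With them it had 13 tested genes and 9 calls, against 5 calls without Col-7 replicate 4.

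Among 9 tested genes of ion and proton transport, 3 were lower and none higher, where 12.5% of all probe sets were called in each direction. With the replicate block 2 were lower and 1 higher. CHX19, a cation/proton exchanger, gave 1242, 1319, 1349.8 and 1319 in Col-7 and 264, 172, 163 and 176 in gir, without overlap, and fell by 2.62 ± 0.13 (adjusted p = 2e-07). OCT1, a carnitine transporter, gave 1486, 1371, 863 and 827 in Col-7 and 627, 545, 367 and 271 in gir, a change of -1.30 ± 0.27 (adjusted p = 0.0054). NRAMP5, a metal transporter outside that class, gave 150.2, 151, 202 and 207 in Col-7 and 28.0, 6.11, 27.2 and 14.1 in gir, all dim in gir, and fell by 2.20 ± 0.18 (adjusted p = 5.6e-06). The third call of the class was VHA-A1, a proton pump subunit, at -0.22 ± 0.07 (adjusted p = 0.049), which the block did not keep. The median of the class was -0.07, and it took in RPN12a, a proteasome subunit, which was not called.

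Late embryogenesis abundant proteins and dehydrins protect cells that dry, as seeds and pollen do. Of 10 tested genes of cold, drought and abscisic acid, 4 were lower and none higher (12.5% of all probe sets in each direction), with a median of -0.15. LEA4-5 gave 536, 468, 539 and 579.7 in Col-7 and 62.2, 78.3, 55.7 and 61.8 in gir, a change of -2.62 ± 0.10 (adjusted p = 8.2e-08). It was dim on all 4 gir arrays and could only be lower. The dehydrin gene listed as LEA gave 1189, 1159, 996 and 1182 in Col-7 and 467, 387, 397 and 381 in gir, a change of -1.42 ± 0.09 (adjusted p = 1.2e-06). AT2G46140, late embryogenesis abundant 27, fell by 1.38 ± 0.10 (adjusted p = 1.9e-06). COR47, a dehydrin induced by cold, fell from 6388 ± 480.1 (SD, n = 4) in Col-7 to 3885 ± 205 in gir, a change of -0.71 ± 0.08 (adjusted p = 0.0001).

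Ubiquitin ligases and F-box proteins, which mark proteins for breakdown, had 4 of 36 tested genes lower and 3 higher, near the 12.5% of all probe sets called in each direction, and the fit of all 14 arrays called 4 lower and 6 higher. PUB15, a U-box ligase, gave 162, 176, 187 and 164 in Col-7 and 37.6, 10.3, 34.4 and 17.3 in gir and fell by 2.00 ± 0.17 (adjusted p = 7.9e-06). PUB19, a U-box ligase of drought responses, ran from 155 to 489 in Col-7 and from 75.2 to 107 in gir, a change of -1.46 ± 0.27 (adjusted p = 0.0033), with adjusted p = 0.053 for replicates 1 and 2 alone. PUB15 and PUB19 were dim on all 4 gir arrays and could only be lower. PUB23, a U-box ligase of stress and immune responses, gave 48.4, 76.1, 109 and 88.2 in Col-7 and 203, 288, 311 and 263 in gir. It rose from values that were all dim to values that were all clear, by 1.48 ± 0.18 (adjusted p = 0.00017). PUB23 thus entered the test through its gir values alone and could hardly be lower.

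In each of the next families 1 member fell further than the others. The counts stand beside 12.5% of all probe sets called lower and 12.5% called higher. The serine carboxypeptidase-like gene scpl38 gave 343, 297, 428 and 499.6 in Col-7 and 63.6, 64.2, 52.2 and 14.7 in gir and fell by 2.53 ± 0.25 (adjusted p = 3.4e-05). It was dim on all 4 gir arrays and could only be lower. The 18 tested genes of its family had 3 lower, 4 higher and a median of 0.01. The tetraspanin gene TET15, for a membrane protein with 4 spans, fell by 1.92 ± 0.17 (adjusted p = 1.6e-05), in a family of 9 with 2 lower and 1 higher. ATG8H, a ubiquitin-like protein of autophagy, gave 931, 779, 1113 and 1259.8 in Col-7 and 456, 402, 460.3 and 505 in gir and fell by 1.1 ± 0.14 (adjusted p = 0.00022), in a family of 7 with 2 lower. UGT85A3, a glycosyltransferase, fell by 1.61 ± 0.15 (adjusted p = 2e-05), in a class of 23 with 5 lower and 2 higher, where 4 genes were called without Col-7 replicate 4 and 4 without gir replicate 4. No member was called among the tested genes named BZIP (8), CHR (5), RPL (7), RPS (7), SEC (6) and TRM (9), and none among the 7 of vesicle fusion and exocytosis.

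**Figure D3:**
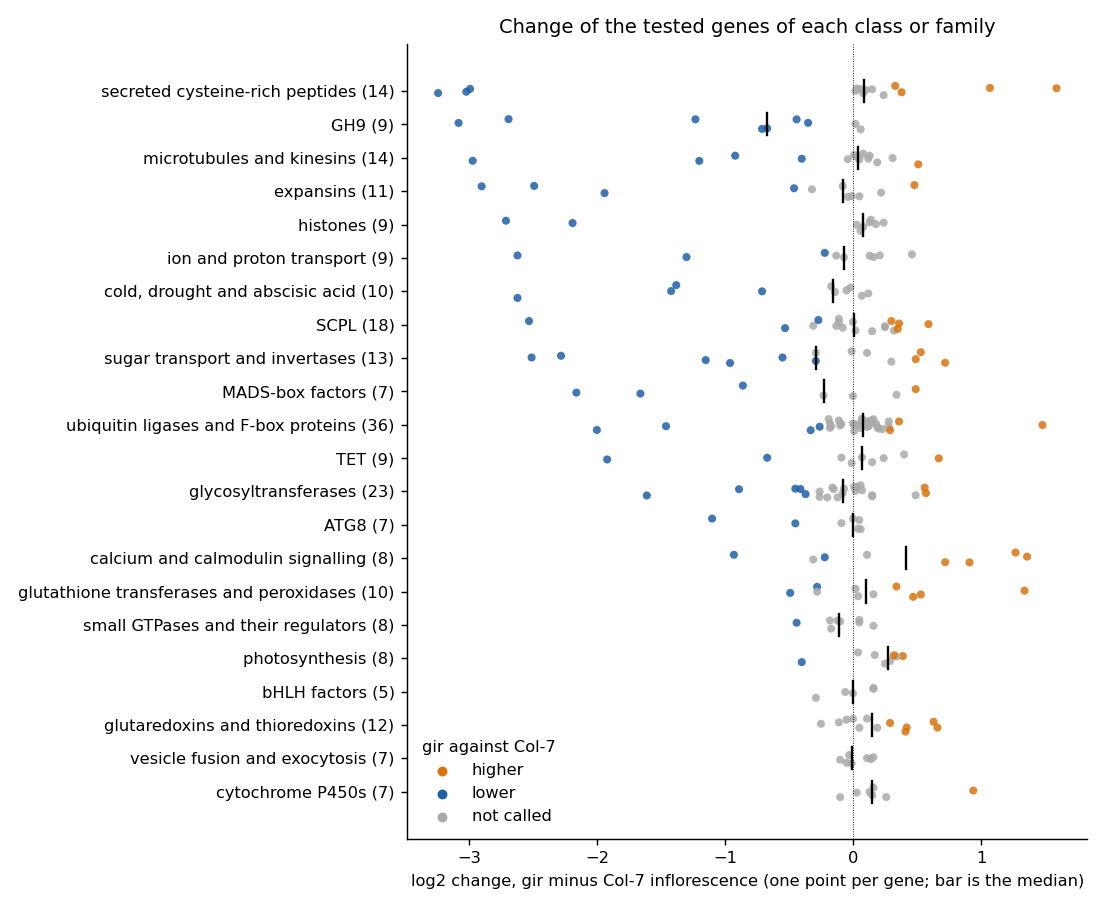
Each point is the log2 change (gir minus Col-7 inflorescence) of 1 gene, for 22 classes or symbol families with the number of genes tested in brackets; orange is called higher, blue called lower, grey not called, and the short black bar is the median. Medians lie between -0.29 and 0.42 except that of GH9, -0.67.

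The markers of the tapetum and of the ovule that could be measured were not called. Of 26 listed tapetum and anther genes, 4 were measured and tested, and none passed the test. Their summed intensity lay between 3837 and 4478 in Col-7 and between 4086 and 4482 in gir. Most of that sum was SWEET8, with means of 2747 in Col-7 and 2725 in gir. AMS, a bHLH regulator of the tapetum, gave 494, 557, 503 and 444 in Col-7 and 477, 467, 422 and 504 in gir, a difference of -0.09 ± 0.09 (adjusted p = 0.5). EMS1, a receptor kinase that specifies the tapetum, gave 739, 905, 833 and 683 in Col-7 and 1107, 978, 860.3 and 959.5 in gir, a difference of 0.30 ± 0.11 (adjusted p = 0.069), and was called without Col-7 replicate 2 (0.37, adjusted p = 0.043) and in the fit of all 14 arrays (adjusted p = 0.026). SPL, a regulator that starts the sporogenous cells and was near the dim range, differed by -0.07 ± 0.09 (adjusted p = 0.59). In the ovule and carpel, INO, of the outer integument, gave 160.3, 164, 182 and 191 in Col-7 and 145, 183, 165 and 166 in gir, a difference of -0.07 ± 0.09 (adjusted p = 0.59). SPT, a bHLH factor of the carpel, differed by 0.16 ± 0.09 (adjusted p = 0.25). The groups overlapped in all of these, and a p that misses the threshold does not show that levels were equal.

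Calcium sensors of the calmodulin-like family were the class with the highest median of those with at least 5 tested genes. Of 8 genes in the class, 4 were higher and 2 lower (12.5% of all probe sets in each direction), with a median of 0.42, and the 6 genes with a CML symbol had a median of 0.82. CML38 gave 416, 539, 1420.0 and 1036 in Col-7 and 1372, 1939, 2298 and 2569 in gir. The groups overlapped at 1 Col-7 array, and the change was 1.36 ± 0.35 (adjusted p = 0.017). CML37 gave 107, 81.0, 194 and 159 in Col-7 and 185, 295, 499 and 529 in gir, again with overlap and higher Col-7 values in replicates 3 and 4, a change of 1.27 ± 0.32 (adjusted p = 0.015). Within replicates 1 and 2 alone the change of CML38 was 1.73 and that of CML37 1.13, and within replicates 3 and 4 alone they were 0.99 and 1.42. CML41, with 2 dim Col-7 arrays, gave 64.2, 94.1, 148 and 148 in Col-7 and 231, 219, 228 and 233 in gir, a change of 0.91 ± 0.19 (adjusted p = 0.0055). CML30 rose by 0.72 ± 0.12 (adjusted p = 0.0013). CML42, a sensor of leaf hairs and defence, fell from 343 ± 23.7 (SD, n = 4) in Col-7 to 168 ± 26.1 in gir, a change of -0.93 ± 0.10 (adjusted p = 8.3e-05). CBL here is cystathionine beta-lyase, taken in by its symbol, and was not called. AT4G35987, taken in by a word among its listed names, was the other fall, at -0.22.

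In another 4 genes that rose, as in CML38 and CML37, the 2 lowest Col-7 arrays were replicates 1 and 2, those with the lower 25S signal. STZ, a zinc-finger repressor induced by salt and cold, gave 1720.2, 1557, 2569 and 2349 in Col-7 and 3163, 4405, 4097 and 4727 in gir, without overlap, and rose by 1.01 ± 0.18 (adjusted p = 0.0021). AT5G64120, peroxidase 71, gave 88.5, 119, 281 and 308 in Col-7 and 358, 453, 526 and 664 in gir, a change of 1.34 ± 0.33 (adjusted p = 0.015), which was 1.74 within replicates 1 and 2 and 0.95 within replicates 3 and 4. AT5G52760 gave 168, 295, 651 and 403 in Col-7 and 1492, 1496, 1679.6 and 2325 in gir, a change of 2.25 ± 0.32 (adjusted p = 0.00052). The gene next in number, AT5G52750, gave 185, 258, 585 and 431 in Col-7 and 1311, 1249.7, 1448 and 1596 in gir, a change of 1.98 ± 0.28 (adjusted p = 0.00048). In these 4 genes, unlike CML38 and CML37, every gir array was above every Col-7 array.

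Further rises were found among genes of several kinds. AT3G62960 gave 124, 95.7, 74.9 and 114 in Col-7 and 765, 662, 589 and 653 in gir, from dim to clear, and had the largest change among the rises named here, 2.45 ± 0.13 (adjusted p = 3.1e-07). It entered the test through its gir values alone and could hardly be lower. AT4G18340 gave 179.9, 275, 248 and 268 in Col-7 and 1046, 1037, 1086 and 1102 in gir, a change of 2.04 ± 0.12 (adjusted p = 5.5e-07). MSRB9, a methionine sulfoxide reductase that repairs oxidised proteins, gave 115, 156, 126 and 129 in Col-7 and 486, 518, 633 and 655 in gir, a change of 1.92 ± 0.12 (adjusted p = 7.6e-07). Of its Col-7 values, 3 were dim. QQS, an Arabidopsis-specific gene that modulates starch, gave 301, 359, 398 and 331 in Col-7 and 1134, 1236, 1362 and 1831 in gir, a change of 1.91 ± 0.14 (adjusted p = 3.8e-06). ECS1 gave 3794, 3483, 3409 and 3068 in Col-7 and 7932, 7417, 7244 and 7635 in gir, a change of 1.13 ± 0.08 (adjusted p = 2.8e-06), and lost its call in the fit of all 14 arrays (adjusted p = 0.09). ARL, which promotes organ growth and was also lowest in Col-7 replicates 1 and 2, rose by 0.99 ± 0.15 (adjusted p = 0.00089). CCS, the copper chaperone of superoxide dismutase, and CYP71B22, a cytochrome P450, rose by 0.99 ± 0.17 (adjusted p = 0.0016) and 0.94 ± 0.18 (adjusted p = 0.0036), and with replicates 1 and 2 alone their adjusted p was 0.092 and 0.089. CYP71B22 was the only call among 7 tested genes of the P450 class, of which CYP59 and CYP71 are cyclophilins.

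Some redox genes rose. Of 12 tested genes matched by words and symbol stems to glutaredoxins and thioredoxins, 5 were higher and none lower (12.5% of all probe sets in each direction). Their median was 0.15, and the replicate block gave 5 higher and 1 lower. The matching can miss genes listed by locus alone, such as AT3G62960 and AT2G30540, so larger rises among such genes may lie outside this count. The sizes below hold for the matched genes only. TRXF2, a thioredoxin of chloroplasts, rose from 816 ± 69.2 (SD, n = 4) in Col-7 to 1104 ± 107 in gir, by 0.42 ± 0.09 (adjusted p = 0.0085), with adjusted p = 0.06 for replicates 1 and 2 alone. GRX480, a glutaredoxin of salicylic acid responses, gave 130.1, 167, 237 and 226 in Col-7 and 248, 281, 303 and 388 in gir, a change of 0.63 ± 0.18 (adjusted p = 0.027). ROXY2, a glutaredoxin of anther development, gave 92.8, 124, 125 and 49.6 in Col-7 and 138, 143, 202 and 177 in gir, a change of 0.66 ± 0.21 (adjusted p = 0.044). It was dim on all 4 Col-7 arrays and could hardly be lower in gir. NTRC, a chloroplast thioredoxin reductase, had overlapping groups and a change of 0.41 ± 0.13 (adjusted p = 0.049). The calls of GRX480, ROXY2 and NTRC were lost when single arrays were left out: GRX480 without Col-7 replicate 1 or 2 or gir replicate 2, 3 or 4 (0.054 to 0.068), ROXY2 without Col-7 replicate 1 or 4 or gir replicate 2, 3 or 4 (0.058 to 0.11), and NTRC without Col-7 replicate 2, 3 or 4 or gir replicate 1, 2 or 3 (0.057 to 0.13), all as adjusted p. The class count went from 5 to 2 without gir replicate 2 or gir replicate 3, and to 3 without Col-7 replicate 1, 2 or 4 or gir replicate 4. Of 10 glutathione transferases and peroxidases, 4 were higher and 2 lower (12.5% of all probe sets in each direction), and the count went from 6 to 3 without gir replicate 2. PRXR1, a peroxidase of the cell wall, rose from 4615 ± 415 (SD, n = 4) in Col-7 to 6677 ± 288 in gir, by 0.53 ± 0.08 (adjusted p = 0.001), with adjusted p = 0.052 for replicates 1 and 2 alone.

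The genes of photosynthesis had small changes that depended on the processing. Of 8 tested, 2 were higher and 1 lower (12.5% of all probe sets were called in each direction), with a median of 0.27. With replicates as a block 4 were higher and 1 lower, and after quantile normalization 0 were higher and 1 lower. LHCB4.1, an antenna protein of photosystem II, gave 9553, 10030.3, 9541 and 8978 in Col-7 and 10811, 11704, 13249 and 11908 in gir, a change of 0.32 ± 0.08 (adjusted p = 0.018), and its call was lost after quantile normalization (0.17, adjusted p = 0.12), without Col-7 replicate 4 (0.29, adjusted p = 0.053) and within replicates 1 and 2 alone (0.20, adjusted p = 0.35). PSBY, a small subunit of photosystem II, rose by 0.39 ± 0.12 (adjusted p = 0.036) with overlapping groups. RCA, the activase of Rubisco and a green tissue marker, rose by 0.26 ± 0.08 (adjusted p = 0.033). LHCB4.3, a variant antenna protein, fell by 0.40 ± 0.12 (adjusted p = 0.037), with overlapping groups. The call of PSBY was lost without Col-7 replicate 2, 3 or 4 or gir replicate 1 or 2 (0.058 to 0.1), that of RCA without Col-7 replicate 2, 3 or 4 or gir replicate 2 or 4 (0.054 to 0.093), and that of LHCB4.3 without Col-7 replicate 1, 2 or 3 or gir replicate 2, 3 or 4 (0.055 to 0.1), all as adjusted p. After quantile normalization RCA differed by 0.15 (adjusted p = 0.17) and PSBY by 0.36 (adjusted p = 0.052). In the class, 1 gene was called without any 1 of Col-7 replicates 2, 3 and 4 and gir replicate 2. The green tissue markers LHCB4.1 and RCA together summed to between 16473 and 18491 in Col-7 and between 20584 and 22701 in gir.

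Falls were then set against where each transcript is found in the wild type. For this, the ratio of Col-7 inflorescence over Col-7 root was taken on the same log2 scale. It shares the 4 Col-7 inflorescence arrays with the comparison of genotypes, and roots differ from inflorescences in age and growth medium as well as in tissue, so the following is a description with no test. Of 855 probe sets with a ratio above 3, 51.6% were lower in gir and 5.38% higher. With a ratio of 1 to 3, 20.1% of 2341 were lower and 11.4% higher. Between -1 and 1, 7.21% of 9626 were lower and 12.1% higher. In the probe sets of root preference, with a ratio below -1, rises led: 22.8% of 1145 were higher and 12% lower.

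**Figure D4:**
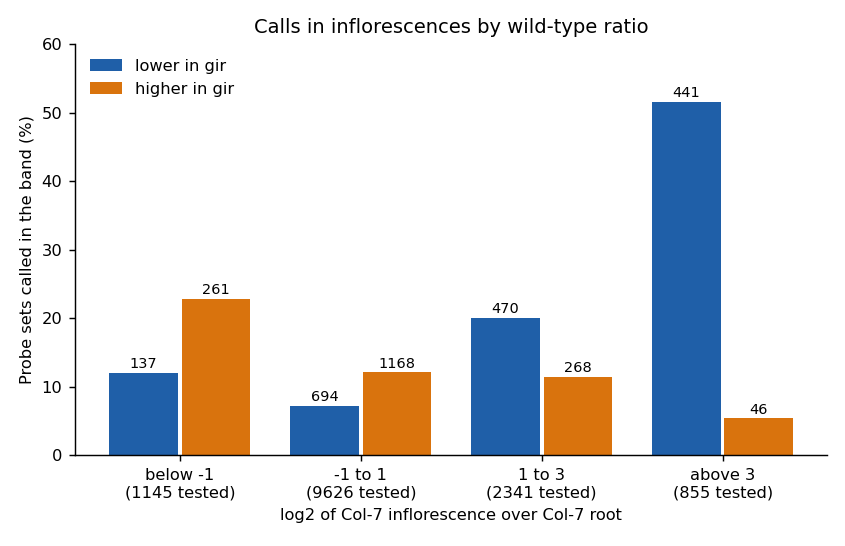
Share of the probe sets tested (vertical axis, percent) that were lower (blue) or higher (orange) in gir inflorescences, in 4 bands of the log2 ratio of Col-7 inflorescence over Col-7 root; numbers on the bars are probe sets called. The lower share climbs from 7.21% between -1 and 1 to 51.6% above 3, while the higher share is greatest, 22.8%, below -1.

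The Col-7 root level itself shares no array with the comparison. Of 1863 probe sets dim on all 3 Col-7 root arrays, 666 (35.7%) were lower in gir inflorescences and 191 (10.3%) higher. Of the other 12104, 1076 (8.89%) were lower and 1552 (12.8%) higher. The larger the fall, the more of it came from such transcripts: 302 of the 330 falls of at least 4-fold (91.5%) and 476 of the 652 of at least 2-fold (73.0%) were dim in Col-7 roots, against 13.3% of all probe sets tested. The median Col-7 root intensity was 15.7 for the 4-fold falls, 30.9 for the 2-fold falls and 417 over all. The falls include probe sets dim on all 4 gir arrays, such as AT59, which could only be lower, so these shares reflect the filter in part. Among the 147 rises of at least 2-fold, 48 (32.7%) were dim in Col-7 roots.

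A few falls went against this. AT3G57010 was at 2332 ± 566 (SD, n = 3) in Col-7 roots, and in inflorescences gave 344, 331, 323 and 342 in Col-7 and 217, 116, 115 and 104 in gir, a change of -1.19 ± 0.17 (adjusted p = 0.00062). SUFE2, a factor of iron-sulfur cluster assembly, was at 739.9 ± 22.3 (SD, n = 3) in Col-7 roots and gave 179, 193, 197 and 201 in Col-7 and 50.5, 61.8, 48.4 and 67.1 in gir in inflorescences, a change of -1.40 ± 0.09 (adjusted p = 1.2e-06). It was dim on all 4 gir inflorescence arrays and could only be lower there. AT2G46140 and TUB1 were also brighter in Col-7 roots, at 2481 ± 157 (SD, n = 3) and 1408 ± 90.5 (SD, n = 3), than in Col-7 inflorescences. Of the 652 falls of at least 2-fold, 21 had a ratio below -1 and 336 (51.5%) a ratio above 3. Rises with a high ratio were fewer, 4 of 147 above 3, and included QQS, ECS1 and AT2G30540, which gave 333, 439, 429.5 and 417 in Col-7 and 1003, 900.1, 743 and 996 in gir, a change of 1.12 ± 0.12 (adjusted p = 5.8e-05).

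The genotype contrast in roots was set beside that in inflorescences through an interaction term over all 14 arrays. It passed the threshold for 78 of the 96 named genes and for 21.1% of all probe sets, but most of the 96 were named for their inflorescence change, so nothing is read from that count. SP1L4, which fell in inflorescences, had a root change of 0.55 ± 0.10, and HIS1-3 one of 0.78 ± 0.16. LCR68, which rose in inflorescences, had a root change of -0.55 ± 0.08. For most pollen genes above, such as AT5G07420 (0.01 ± 0.06 in roots) and AGL104 (0.16 ± 0.17), the root arrays were at or near the floor of the scale and could show no fall.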

How the data were processed

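Affymetrix arrays were hybridised with RNA from 8 inflorescence and 6 root samples. The authors deposited linear intensities, 1 for each of 22810 probe sets, which MAS5 gave, per the submitters' processing notes, with no version given in the sources used here. Without the lowest and highest 2% of values, each array had a mean of 500. The 64 control probe sets were left out. An array has no read depth, and precision is limited by the number of arrays.

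Changes were computed on log2(intensity + 26), where 26 is near the 20th percentile of all values (26.2). The 8 inflorescence arrays were fitted with limma 3.58.1 (lmFit and eBayes, two-sided) in R 4.3.3, with Benjamini-Hochberg adjustment over 13967 probe sets and a threshold of 0.05. The interaction with tissue was fitted over all 14 arrays. On simulated data the inflorescence fit recovered 54% of changes of 0.5, 86% of 1, 100% of 2 and 90% of -1, 50 of each among 13967 probe sets, with 7 unchanged ones called. Its errors were independent and normal, and far fewer probe sets changed than the 25.0% called in the data. These rates therefore need not hold for the data.

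Titles give both genotypes replicate numbers 1 to 4. Deviations from the genotype mean of same-numbered arrays correlated at 0.587, 0.191, 0.203 and 0.517. Some arrays of unlike number correlated too: 0.402 for Col-7 replicate 3 with gir replicate 4, 0.249 for 4 with 3 and 0.188 for 2 with 1. The remaining unlike-numbered pairs ran from -0.538 to 0.12. These values do not show that the numbers pair the arrays 1 to 1, and the fit with same-numbered arrays as a block is an alternative.

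Of 14016 probe sets listed in the platform annotation, 13513 named 1 gene, and 13436 of these matched the TAIR10.1 gene table, as 13286 genes. The other 8730 probe sets are unnamed here. Only 1088 of 7461 genes tested had a symbol, so classes are small: 33 of 39 had a member and 18 had at least 5 tested genes. Classes came from words in the listed symbols and synonyms and from symbol stems, with 1 probe set a gene, the one of highest mean. A gene whose listed names held no such word was missed, so classes may lack members. Named genes were the largest changes without overlap, the 3 largest calls of each class and direction, all tested markers and the falls and rises that ran against their tissue ratio. The symbol families, their members, and the 40 largest changes among genes with a symbol were added after values were seen, and BPEp, GH9B5, NET2D, ATG8H, COR47, EXLA1, TUB9, NTRC and VHA-A1 were named after theirs were. The members and lists were chosen with earlier results of these data known. Alternatives were another pseudocount, scaling, filter, block, subset of replicates and a joint fit.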

Additional observations from a re-analysis of the deposited data

Results flagged for a closer look

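The genotype change differed between inflorescences and roots for 78 of the 96 genes named above, by the interaction term of the limma fit over all 14 arrays, where 21.1% of all probe sets passed. Most of these genes were named for their inflorescence change, so nothing is read from that count. Values are the inflorescence change minus the root change on the log2 scale, and a negative value means that gir was relatively lower in inflorescences. Roots differed in age and medium as well as tissue, and many of these genes were dim in roots. Among wall genes it was -3.36 for AT59, -1.77 for ADPG1, -2.38 for EXPB5, -2.09 for EXPA24, -2.51 for EXPA8, -0.79 for EXLA1, 0.51 for EXPA20 and 0.73 for PME61. In the GH9 family it was -2.87 for GH9B11, -2.29 for GH9A4 and -0.88 for GH9B5. For actin genes, actin-binding proteins and myosins it was -1.96 for ACT12, -0.85 for ACT11, -3.37 for PLIM2a, -1.89 for PLIM2b, -1.63 for XIE, -1.62 for XIC and -0.96 for NET2D. For genes of microtubules it was -0.95 for TUA1, -1.36 for TUB1, -0.36 for TUB9, -3.52 for SP1L4 and 0.83 for KINESIN-12B. Peptide genes and the receptor kinases gave -2.80 for RALFL26, -2.60 for RALFL25, -2.83 for LCR72, 2.11 for PDF2.1, 1.62 for LCR68, -3.05 for ANX2 and 0.44 for EMS1. Transcription factors and histones gave -2.31 for AGL104, -1.93 for AGL66, -0.69 for AGL18, -1.70 for BPEp, -3.49 for HIS1-3 and -2.12 for MGH3. Transporters gave -2.13 for SWEET13, -2.19 for SWEET14, -2.94 for AtVEX1, 1.08 for SWEET10, 0.75 for SWEET17, -1.44 for TMT3, -2.55 for CHX19, -2.08 for OCT1 and -2.26 for NRAMP5. For genes of drying and cold it was -2.65 for LEA4-5, -1.42 for LEA, -1.65 for AT2G46140 and -0.80 for COR47. For the ligases and members of other families it was -2.27 for PUB15, -1.50 for PUB19, 1.37 for PUB23, -2.17 for scpl38, -2.33 for TET15, -1.51 for ATG8H, -1.14 for UGT85A3 and -1.62 for SUFE2. For calcium sensors it was 1.22 for CML41, 1.06 for CML30 and -1.19 for CML42. Redox and photosynthesis genes gave 1.79 for MSRB9, 1.02 for CCS, 0.67 for TRXF2, 0.63 for PRXR1, 1.46 for CYP71B22, 0.36 for LHCB4.1 and 0.59 for PSBY. Another 2 large rises gave 1.28 for QQS and 2.45 for ECS1. The genes named by locus alone gave -3.72 for AT5G07420, -3.28 for AT5G07430, -3.20 for AT4G02250, -1.35 for AT3G57010, 3.18 for AT3G62960, 2.34 for AT5G52760, 2.01 for AT5G52750, 2.43 for AT4G18340 and 1.17 for AT2G30540.

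Within a group of 4 arrays, 1 array stood apart from the other 3 in 12 of 192 groups tested (96 genes in both genotypes), by Dixon's test, which flags about 1 group in 20 by chance. AGL18 read 168 in gir replicate 4, against 239 to 251 on the other 3. AT2G46140 read 941 in Col-7 replicate 1, against 1058 to 1074 on the other 3. AT3G57010 read 217 in gir replicate 1, against 104 to 116 on the other 3. CHX19 read 264 in gir replicate 1, against 163 to 176 on the other 3. EXPA20 read 133 in Col-7 replicate 1, against 160.0 to 163 on the other 3. EXPB5 read 77.1 in gir replicate 3, against 44.4 to 49.0 on the other 3. LEA read 996 in Col-7 replicate 3, against 1159 to 1189 on the other 3. LHCB4.3 read 1524 in gir replicate 1, against 1181 to 1197 on the other 3. PUB19 read 75.2 in gir replicate 1, against 104 to 107 on the other 3. SWEET8 read 2453 in Col-7 replicate 1, against 2804 to 2872 on the other 3. TUB1 read 678 in Col-7 replicate 1, against 567 to 585 on the other 3. TUB1 read 460.4 in gir replicate 1, against 259 to 275 on the other 3. Leaving out these arrays turned the direction of no called gene among them.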

How the results depend on the processing

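In 18 alternatives no direction of a called value was reversed, and 69 of the 90 called genes named above kept their call in all of them; for each of the others, and for EMS1, at least 1 setting that changed the call is given beside the gene. With the replicate block 2706 probe sets were called higher, and 5 photosynthesis genes and 1 bHLH gene were called. The block ended no call of the 90 genes, though it ended that of VHA-A1. It moved other classes by 1 or 2 calls, as in expansins (2 higher and 5 lower), MADS-box factors (2 and 4) and sugar transporters (4 and 6). Replicates 1 and 2 alone gave 553 probe sets higher and 1050 lower, and called 3 expansins, 1 glutaredoxin or thioredoxin, 2 glutathione transferases or peroxidases, 2 glycosyltransferases, 2 genes of microtubules, 5 sugar transporters, 2 ubiquitin ligases, and 0 P450s, photosynthesis genes and small GTPases. Replicates 3 and 4 alone called 5 photosynthesis genes and 3 ubiquitin ligases. The stricter filter left 83 probe sets at least 2-fold higher and 426 lower, and called 2 MADS-box factors, 1 calcium gene, 3 glutaredoxins or thioredoxins, 3 glycosyltransferases, 1 histone gene and 2 ubiquitin ligases, with fewer genes tested. Without a filter, 3 glutaredoxins or thioredoxins, 1 photosynthesis gene and 0 small GTPases were called. A pseudocount of 8 called 3 glutaredoxins or thioredoxins, and quantile normalization called 1 photosynthesis gene, which was lower. The share of 2-fold falls with a ratio above 3 was 58.0% with a pseudocount of 8, 39.3% with 64, 46.2% after median centring, 41.9% without a filter and 68.1% with the stricter one. The share dim in Col-7 roots was 77.0% with a pseudocount of 64 and 76.6% without a filter. Where arrays were left out in turn, probe sets higher ranged from 1160 to 2086, glutaredoxins and thioredoxins called from 2 to 4, glutathione transferases and peroxidases from 3 to 6, glycosyltransferases from 4 to 7, photosynthesis genes from 1 to 3, small GTPases from 0 to 1 and sugar transporters from 5 to 9. The causes were not tested. With 4 arrays a group and no detection calls, changes of dim genes are poorly resolved.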
